A study of Homo sapiens with 60 samples.

Results

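To ask how early the responses to arsenic and mercury part, the 3 libraries of 1321N1 cells treated with arsenic for 1.5 h were compared directly with the 3 libraries treated with mercury for the same time, the earliest time point of the study. These 6 libraries were chosen by their labels out of 60, and the comparison ran across all genes with enough counts. 1321N1 is an astrocyte-derived (astrocytoma) cell line. In full medium, arsenic was given as sodium metaarsenite (2.55 µM) and mercury as its chloride salt (20 µM), and the doses had been set to kill an equal, small share of cells by a much later time. The 3 non-treated libraries of 1.5 h, and the 3 treated with 2.3 µM cadmium chloride for 1.5 h, are given beside the comparison as a reference and share the cell line, medium, and time. The labels describe the triplicates as technical, so that p values may measure only technical spread. All values are from 3′ mRNA sequencing, in which reads come from the poly(A) end of a transcript and their number does not grow with transcript length. They are given as CPM (each gene's share of the TMM-normalized library total, scaled as is usual for this unit), and differences as the log2 fold change (LFC) of mercury minus arsenic, so that a positive LFC stands for a higher level with mercury.

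Trivalent arsenic and mercury both bind the thiol groups of proteins and of glutathione, and cells answer with a small number of transcription factors. MTF1 senses free zinc and induces metallothioneins and the zinc exporter SLC30A1, HSF1 answers unfolded proteins with heat-shock genes, NRF2 answers the modification of its thiol-rich inhibitor KEAP1 with antioxidant genes such as HMOX1, and ATF4 answers stress on translation and amino acid supply. Immediate-early genes such as EGR1, JUN, and ATF3 are switched on by MAP kinase signalling without new protein synthesis and are therefore among the first transcripts to move after a stimulus.

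Total counts were 3251153 to 3684533 for the arsenic libraries and 3667487 to 3984283 for the mercury libraries (two-sided exact permutation test, p = 0.2; the smallest p that 3 against 3 allows is 0.1), and the shares of mitochondrial and of ribosomal protein counts did not pass this test either (p = 0.2 for each). Of 14 astrocyte marker genes, 7 had a mean above 1 CPM over the 12 libraries of 1.5 h, led by VIM with 3709 to 5255 CPM, whereas ALDH1L1, FABP7, AQP4, and S100B were at 0 in each and GFAP, the defining marker of astrocytes, had counts in 1 of the 12 libraries. Markers of microglia and of oligodendrocytes each summed to at most 2.9 CPM. The 8 neuron markers summed to 19.9 to 25.9 CPM in non-treated, 19.7 to 22.4 CPM in arsenic, and 21.7 to 24.8 CPM in mercury libraries. Of these, SYT1 and GAD1 had a mean above 1 CPM, with 11.02 and 10.38 CPM over the 12 libraries. STMN2, TUBB3, and RBFOX3 were at 0 in each. The third arsenic library stood apart from the first and the second. The chi-square of their counts per degree of freedom was 5.28 and 6.71 against the third and 3.18 between the first and the second. Pairs of mercury libraries gave 2.58 to 2.81 and pairs of non-treated libraries 2.67 to 2.7. The cadmium libraries showed a smaller split of this kind, with 3.64 and 3.31 against the third and 2.27 between the first and the second. Results that rest on the first and second arsenic libraries are therefore also given without both, an alternative chosen after seeing the data, in which the lone arsenic library is assumed to vary like the other groups.

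At 1.5 h, 91 genes were higher with mercury than with arsenic (0.737% of the 12341 genes tested) and 101 were lower (0.818%) at an adjusted p under 0.05 in the quasi-likelihood test of edgeR. An LFC above 1 was reached by 23 of the higher genes (0.186%), EGR1, ATF3, HSPA1A, and DUSP1 among them, and an LFC below -1 by 15 of the lower genes (0.122%), of which 7 were replication-dependent histone genes. Of the 91 higher genes, 90 had all mercury libraries above all arsenic libraries, as did 9.03% of all genes tested, and 86 of the 101 lower genes had them all below, as did 8.98% of all genes. Without the first and second arsenic libraries, 20 genes were higher and 4 lower, all of them among the 91 and the 101, and the LFC kept its sign for 91 of 91 and 97 of 101 genes. Leaving out single libraries gave 38 to 172 higher and 11 to 286 lower genes. Both lowest values were without arsenic library 2 and both highest without arsenic library 3. The test estimated the spread over all groups, although the arsenic libraries differed more among themselves than the mercury libraries. A fit of only the 6 libraries compared called 77 higher and 80 lower genes, which kept 66 of the 91 and 67 of the 101.

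The non-treated cells separated these genes into sets. For 78 of the 91 higher genes, the mean of the mercury libraries lay farther from the non-treated mean than that of the arsenic libraries, with a median LFC of 0.67 for mercury against non-treated cells and -0.08 for arsenic against the same cells. In each library, the median difference of the 78 genes from the non-treated mean was 0.65, 0.63, and 0.73 on the log2 scale with mercury and -0.06, -0.08, and -0.03 with arsenic. The choice of the set by distance from the non-treated cells largely fixes these values, and in 14 of the 78 genes the arsenic and non-treated libraries did not overlap. This count is not set against the share over all genes tested, so it cannot tell whether arsenic moved these genes. Likewise, 27 of the 101 lower genes lay farther away with mercury, with library medians of -0.64, -0.56, and -0.66 with mercury against 0.22, 0.25, and 0.03 with arsenic. The remaining 74 lower genes lay farther away with arsenic, and here the arsenic libraries were unequal: 0.51 and 0.63 in the first and second but 0.15 in the third, where the cadmium libraries had 0.15, 0.17, and 0.17. The remaining 13 higher genes mirrored this pattern, with -0.50, -0.51, and -0.14 in the arsenic libraries. Without the first and second arsenic libraries, the median LFC of mercury minus arsenic was 0.76 for the 78 genes and -0.77 for the 27. It was -0.25 for the 74 genes and 0.25 for the 13. The sets were formed with those libraries included, which largely fixes the smaller values of the 74 and the 13.

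**Figure D1:**
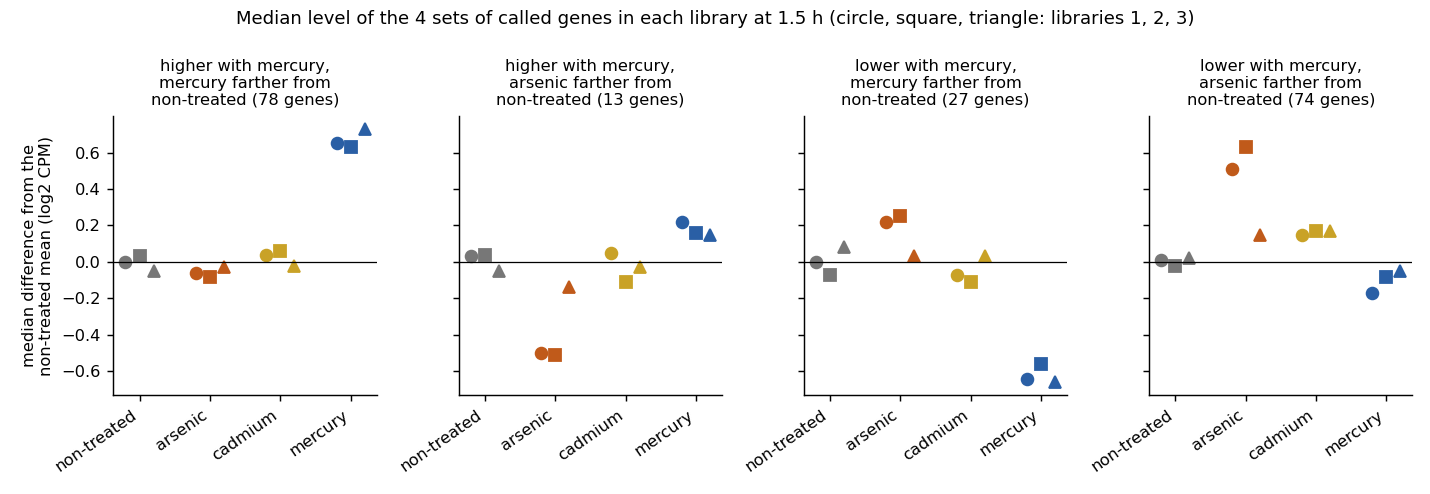
Median difference from the non-treated mean (log2 CPM, y axis) in each of the 12 libraries of 1.5 h (x axis, by group) for the 4 sets of genes called between mercury and arsenic, with symbols for libraries 1, 2, and 3. The 78 and the 27 genes stand away from 0 in all 3 mercury libraries, whereas the 74 and the 13 genes stand away from 0 mainly in the first and second arsenic libraries.

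Promoters of 4 genes higher with mercury are shown. Each holds the letters of the metal response or the heat shock element, which MTF1 and HSF1 are known to bind. The sequences are RefSeq promoters of GRCh38.p14, 250 bases before to 50 after the start site, written 5′ to 3′ along the gene. Capitals mark the metal response element (TGCACNC or TGCGCNC on either strand) in SLC30A1 and EGR1, and the heat shock element (GAANNTTC or TTCNNGAA) in HSPA1A and HSPA6.
SLC30A1 (chr1:211579112-211579411, minus strand): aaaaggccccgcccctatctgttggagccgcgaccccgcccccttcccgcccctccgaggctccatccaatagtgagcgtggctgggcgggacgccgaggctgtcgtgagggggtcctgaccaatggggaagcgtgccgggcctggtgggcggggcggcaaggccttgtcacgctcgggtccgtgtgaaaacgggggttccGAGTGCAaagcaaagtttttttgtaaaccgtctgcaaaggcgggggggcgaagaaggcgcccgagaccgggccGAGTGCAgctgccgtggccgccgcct
EGR1 (chr5:138465229-138465528, plus strand): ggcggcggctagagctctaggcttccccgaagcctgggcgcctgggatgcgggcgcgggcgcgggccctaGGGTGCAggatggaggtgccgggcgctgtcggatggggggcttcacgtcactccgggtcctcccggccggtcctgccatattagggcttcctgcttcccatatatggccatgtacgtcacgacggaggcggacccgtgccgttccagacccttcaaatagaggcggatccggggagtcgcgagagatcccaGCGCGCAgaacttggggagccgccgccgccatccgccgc
HSPA1A (chr6:31815293-31815592, plus strand): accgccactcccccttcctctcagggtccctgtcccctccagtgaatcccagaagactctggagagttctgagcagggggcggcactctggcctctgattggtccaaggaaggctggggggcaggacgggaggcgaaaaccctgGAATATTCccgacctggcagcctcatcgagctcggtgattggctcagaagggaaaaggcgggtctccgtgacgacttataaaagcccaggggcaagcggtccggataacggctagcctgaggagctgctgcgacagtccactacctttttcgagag
HSPA6 (chr1:161524290-161524589, plus strand): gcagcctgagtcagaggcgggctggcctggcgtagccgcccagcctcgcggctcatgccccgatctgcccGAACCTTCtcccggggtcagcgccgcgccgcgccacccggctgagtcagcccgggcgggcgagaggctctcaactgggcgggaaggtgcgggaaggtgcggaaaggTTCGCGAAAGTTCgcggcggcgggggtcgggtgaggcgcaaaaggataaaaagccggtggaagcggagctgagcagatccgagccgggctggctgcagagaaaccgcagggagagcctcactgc
The short letters of the metal response element occur in 29.6% of all 35116 promoters of the table and in 37.4% of those of genes tested, so a match describes the sequence only. The table held 86 promoters of 63 of the 78 genes, of which 40.7% contained the metal response element, 18.6% the heat shock element (10.4% for genes tested), 22.1% the antioxidant response element TGACNNNGC (14.4%), 6.98% the AP-1 site TGACTCA or TGAGTCA (3.47%), and 6.98% the cAMP response element TGACGTCA (2.92%). Of 25 promoters of 21 of the 27 lower genes, 48% contained the metal response element, 8% the heat shock element, 4% the antioxidant response element, and 12% the AP-1 site, so that the metal response and AP-1 letters were also found beside lower genes. HSPA6 held 3 heat shock elements, some of them overlapping, and HSPA1A held 1, whereas SLC30A1 and EGR1 each held 2 metal response elements. The promoters of ATF3, also higher with mercury, held 0 of any of these elements. Of genes lower with mercury, ID1 held 1 heat shock element and H1-2 held 1 metal response element.

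Immediate-early genes held the most higher calls of the gene lists. Over all genes tested, 0.737% were higher and 0.818% lower, and the counts of each list stand beside these shares. EGR1, a zinc finger factor induced by MAP kinase signalling (chromosome 5, from 138465479 to 138469303 of GRCh38), had 297, 283, and 296 CPM with mercury, 59.8, 49.9, and 44.1 CPM with arsenic, and 29.0, 34.9, and 35.4 CPM in non-treated cells. The LFC was 2.51 between the metals (standard error 0.18, adjusted p = 3.7e-17) and 3.14 for mercury against non-treated cells, whereas the 0.64 of arsenic against non-treated cells did not pass (adjusted p = 0.199). JUN, a subunit of the AP-1 factor, had 548, 533, and 567 CPM with mercury against 340, 327, and 279 CPM with arsenic (LFC 0.80, standard error 0.08, adjusted p = 2.88e-11), and non-treated cells had 276, 274, and 250 CPM. ATF3, a stress-induced partner of JUN, had 23.5, 35.5, and 33.7 CPM with mercury against 5.22, 13.5, and 6.55 CPM with arsenic (LFC 1.86, standard error 0.26, adjusted p = 1.08e-06). In all 3 genes each mercury library lay above each arsenic library, and for ATF3 the arsenic libraries overlapped the non-treated ones.

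Of 10 AP-1 genes tested, 3 were higher with mercury (JUN, JUNB, and ATF3) and 0 lower, with a median LFC of 0.53 beside -0.003 over all genes tested, and the same 3 passed without the first and second arsenic libraries. JUNB had an LFC of 0.94 (adjusted p = 1.77e-08). FOS, the classic partner of JUN, was barely detected, with 2.41, 5.33, and 3.71 CPM with mercury and at most 0.89 CPM with arsenic, and did not pass (adjusted p = 0.111). Of 37 other immediate-early genes, 13 were higher and 3 lower (ID1, ID2, and ID3), with a median LFC of 0.32. Without the first and second arsenic libraries, 7 were higher and 2 lower. Among the higher genes, the growth-arrest gene GADD45A had an LFC of 1.26 (adjusted p = 2.12e-07), CCN1, a matricellular protein gene regulated by SRF and YAP, of 1.06 (adjusted p = 7.6e-07), the mRNA decay factor gene ZFP36L1 of 0.94 (adjusted p = 1.74e-11), the transcription factor gene KLF6 of 0.56 (adjusted p = 9.17e-06), and the survival gene MCL1 of 0.48 (adjusted p = 0.00223). These 5 genes passed in each fit that left out 1 library and without both arsenic libraries, as did HBEGF, an EGF receptor ligand gene of another list, with 167, 178, and 207 CPM with mercury against 78.3, 82.2, and 76.2 CPM with arsenic (LFC 1.22, adjusted p = 1.56e-10).

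**Figure D2:**
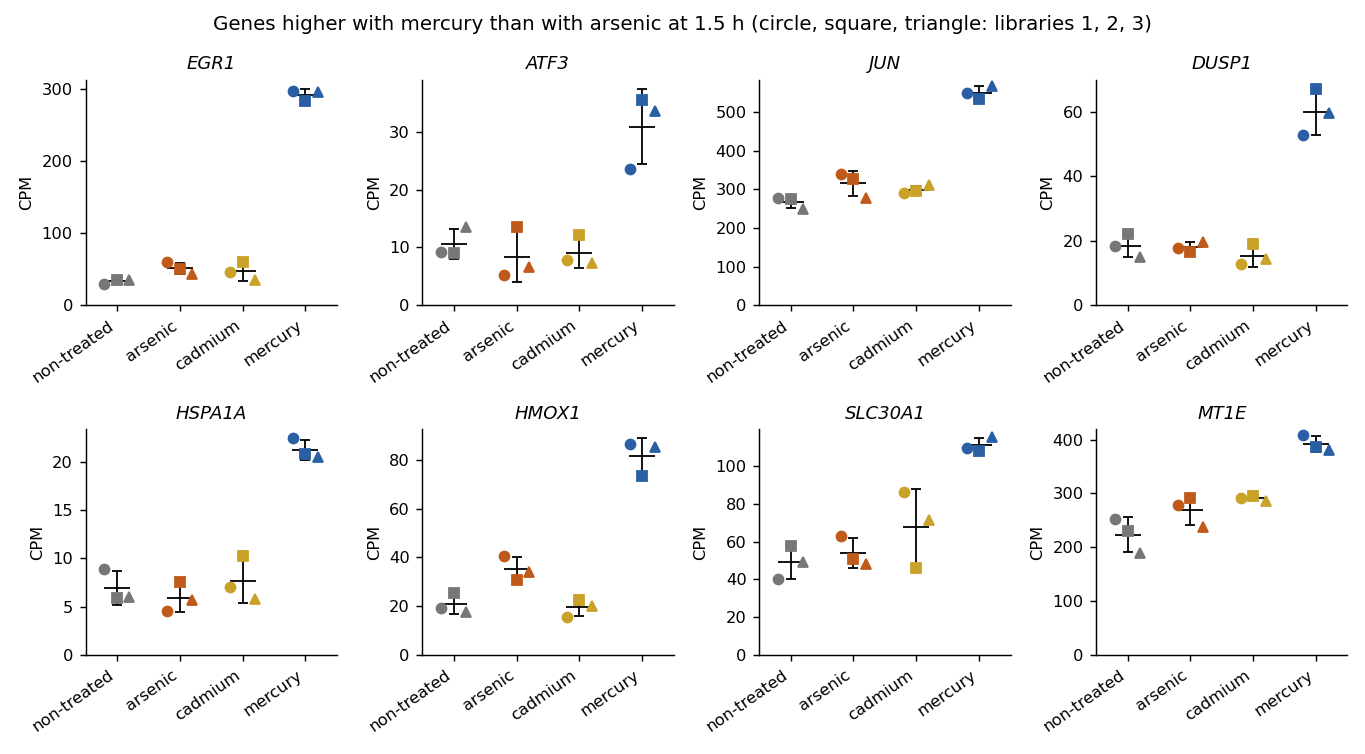
CPM (y axis) of 8 genes higher with mercury than with arsenic at 1.5 h in non-treated, arsenic, cadmium, and mercury libraries (x axis), with a symbol for each library and the mean ± SD (n = 3) in black. The 3 mercury libraries of each gene lie above the 3 arsenic libraries, for example 283 to 297 CPM against 44.1 to 59.8 CPM for EGR1.

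MYC, the growth-promoting transcription factor, had 21.1, 14.4, and 15.1 CPM with mercury, 5.83, 4.21, and 4.17 CPM with arsenic, and 10.2, 10.1, and 5.57 CPM in non-treated cells. The mercury libraries lay above all others, but its LFC of 1.83 (adjusted p = 0.0144) was not significant without arsenic library 1 (2.00, adjusted p = 0.0516), arsenic library 2 (1.75, adjusted p = 0.126), or mercury library 1 (1.64, adjusted p = 0.124), nor without both arsenic libraries (adjusted p = 0.595).

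Among 16 DUSP and Sprouty genes, which feed back on MAP kinase signalling, 4 were higher, each with an LFC above 1, and 0 lower, with a median LFC of 0.49. Without the first and second arsenic libraries, 1 was higher. DUSP1, a phosphatase of JNK and p38, had 53, 67.2, and 59.6 CPM with mercury against 17.8, 16.6, and 19.7 CPM with arsenic, and non-treated cells had 18.5, 22.0, and 15.1 CPM (LFC 1.73, standard error 0.27, adjusted p = 8.4e-06). The arsenic libraries thus lay within the range of the non-treated ones, and the mercury libraries above both. DUSP5, a nuclear ERK phosphatase, had an LFC of 1.26 (adjusted p = 2.5e-06), and ERRFI1, an inhibitor of the EGF receptor, likewise 1.26 (adjusted p = 2.05e-05). SPRY2, an inhibitor of growth factor receptor signalling, had 12.3, 6.40, and 9.16 CPM against 1.23, 3.37, and 2.98 CPM (LFC 1.85, adjusted p = 0.0152), but did not pass without arsenic library 1 (adjusted p = 0.163), arsenic library 2 (adjusted p = 0.0534), or mercury library 1 (adjusted p = 0.147). Without both arsenic libraries, DUSP5 passed (adjusted p = 0.000156), DUSP1 (LFC 1.61, adjusted p = 0.0768) and ERRFI1 (LFC 1.2, adjusted p = 0.0696) did not.

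Outside these lists, KDM6B, which encodes a demethylase of histone H3 lysine 27, had 9.63, 8.0, and 10.2 CPM with mercury against 3.07, 1.96, and 2.38 CPM with arsenic (LFC 1.90, standard error 0.38, adjusted p = 0.00189), without overlap. CLK1, a kinase of splicing factors (LFC 0.91, adjusted p = 0.00239), was among the 20 genes that also passed without the first and second arsenic libraries, and KDM6B was not (adjusted p = 0.361).

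Some heat-shock genes were higher with mercury as well. HSPA1A and HSPA1B encode the inducible HSP70 and lie next to each other on chromosome 6, from 31815543 and 31827738. HSPA1A had 22.5, 20.8, and 20.5 CPM with mercury against 4.60, 7.57, and 5.66 CPM with arsenic (LFC 1.82, standard error 0.27, adjusted p = 2.5e-06), and HSPA1B had 123, 100.0, and 130.4 CPM against 55.5, 48.8, and 59.3 CPM (LFC 1.11, standard error 0.16, adjusted p = 2.5e-06). For both genes the arsenic libraries lay within or near the range of the non-treated ones, which was 5.93 to 8.92 CPM for HSPA1A and 56.9 to 67.3 CPM for HSPA1B. Cut into all 50-base windows, the final 400 bases of HSPA1A share 6.84% of them with HSPA1B, so that part of the reads may not separate the copies. Without both arsenic libraries, the LFC was 1.90 for HSPA1A (adjusted p = 0.012) and 0.99 for HSPA1B (adjusted p = 0.0541).

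HSPA6, an HSP70 gene that is nearly silent in unstressed cells, had 2.94, 1.87, and 7.18 CPM with mercury and 0, 1.12, and 0 CPM with arsenic. With at most 2 counts in each non-treated library, it was at least 3.75-fold higher with mercury than in non-treated cells, taking 3 counts per library as the floor, and at least 2.26-fold higher without mercury library 3. The fitted LFC of 3.25 against arsenic (adjusted p = 0.000639) depends on the prior count, and was 2.50 (adjusted p = 0.0686) without mercury library 3. In all, 4 of 15 HSP70 and HSP110 genes were higher and 0 lower (median LFC 0.33), 2 of them without both arsenic libraries. Among the DNAJ co-chaperones, 2 of 22 were higher (DNAJB1 and DNAJB4) and 0 lower. Of 23 small heat-shock, BAG, and HSP90 genes, 2 were higher (BAG3 and CHORDC1) and 1 lower (STIP1), and of 10 chaperonin genes 0 passed in either direction. DNAJB1, an HSP40 that delivers clients to HSP70, had an LFC of 0.54 (adjusted p = 0.00659) and did not pass without arsenic library 1 (adjusted p = 0.0589) or mercury library 3 (adjusted p = 0.0588).

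Among the NRF2 target genes, 5 of 36 were higher and 1 lower, with a median LFC of 0.04. The lower one was PGD, an enzyme of the pentose phosphate pathway (LFC -0.42, adjusted p = 0.0153). HMOX1, which encodes the heme-degrading enzyme heme oxygenase 1 (chromosome 22), had 86.4, 73.6, and 85.4 CPM with mercury, 40.5, 30.6, and 34.3 CPM with arsenic, and 19.4, 25.5, and 17.5 CPM in non-treated cells. All mercury libraries lay above all arsenic libraries, and all arsenic libraries above all non-treated ones. The LFC was 1.22 between the metals (standard error 0.16, adjusted p = 1.93e-07), 1.97 for mercury against non-treated cells (adjusted p = 4.33e-13), and 0.75 for arsenic against non-treated cells, which did not pass (adjusted p = 0.11). The small MAF genes MAFF (LFC 0.93, adjusted p = 0.00056) and MAFG (LFC 0.56, adjusted p = 0.0137), partners of NRF2 on DNA, were higher, as were SLC7A11, the cystine importer subunit that supplies glutathione synthesis (LFC 0.56, adjusted p = 0.00191), and GCLM, a subunit of the enzyme that starts it (LFC 0.35, adjusted p = 0.0435).

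Of these, HMOX1 alone passed without both arsenic libraries (LFC 1.26, adjusted p = 0.0023), where MAFF had an LFC of 0.96 (adjusted p = 0.147) and SLC7A11 of 0.29 (adjusted p = 0.999). SLC7A11 was also not significant without arsenic library 2 alone (LFC 0.45, adjusted p = 0.0976). GCLM lost its call in 4 of 6 fits with a single library left out (highest adjusted p = 0.527, without arsenic library 2), and MAFG lost it in 3 (highest adjusted p = 0.163, without mercury library 1). SLC3A2, the partner subunit of SLC7A11, had an LFC of 0.20 that did not pass (adjusted p = 0.389), and SLC7A5 one of -0.22 (adjusted p = 0.609).

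The MTF1 targets gave mixed results. SLC30A1, on chromosome 1 from 211571568 to 211579161 and with 2 metal response elements in the promoter above, had 110, 108, and 116 CPM with mercury, 63.2, 51.0, and 48.2 CPM with arsenic, and 40.5, 57.5, and 49.0 CPM in non-treated cells. The arsenic and non-treated libraries overlapped and the mercury libraries lay above both (LFC 1.04, standard error 0.13, adjusted p = 3.63e-08). It was the only one of 16 zinc exporters and importers to pass in either direction. Among 4 metallothioneins tested, MT1E passed and was higher. One of the 4, MT1B, was not measurable here, with 1 count in arsenic library 1 and 0 in every other library of 1.5 h. The median LFC of the list was 0.015 as fitted and 0.232 with MT1B set to an LFC of 0. MT1E, which chelates zinc and cadmium, had 408, 387, and 380.1 CPM with mercury against 278, 291, and 239 CPM with arsenic (LFC 0.54, standard error 0.10, adjusted p = 0.000971), and cadmium at this time gave 292, 295, and 287 CPM. Both genes passed without the first and second arsenic libraries, SLC30A1 with an LFC of 1.2 (adjusted p = 7.09e-05) and MT1E with 0.72 (adjusted p = 0.0118).

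MT2A, the most abundant metallothionein transcript here, showed the opposite sign and did not pass (LFC -0.44, adjusted p = 0.28). Its arsenic libraries had 4917, 5679, and 2705 CPM, against 3030, 3436, and 3374 CPM with mercury and 2591, 2614, and 2604 CPM in non-treated cells. The first and second arsenic libraries thus lay above every other library of 1.5 h, while the third lay below all mercury libraries, and without the first and second the LFC was 0.28 (adjusted p = 0.999). MT1X had 14.7, 11.7, and 14.6 CPM with mercury against 10.7, 12.1, and 6.85 CPM with arsenic, which did not pass (adjusted p = 0.366). Of its 50-base stretches, 50.4% also occur in another gene, as do 11.1% of those of MT2A and 1.42% of those of MT1E.

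ATF4 targets were higher in part. Of 42 genes, 9 were higher and 0 lower, with a median LFC of 0.17, and 2 were higher without both arsenic libraries (ATF3 and PPP1R15A). DDIT4, an inhibitor of mTORC1, had 22.7, 16.8, and 26.7 CPM with mercury against 5.22, 8.13, and 9.23 CPM with arsenic (LFC 1.55, standard error 0.24, adjusted p = 1.13e-05), and non-treated cells had 4.78 to 6.28 CPM. PPP1R15A, which encodes GADD34 and restores translation by dephosphorylating eIF2α, also passed for arsenic against non-treated cells: it had 109, 112, and 119 CPM with mercury, 67.5, 70.4, and 55.1 CPM with arsenic, and 40.1, 40.8, and 30.2 CPM in non-treated cells. The groups did not overlap, and the LFC was 0.81 between the metals (adjusted p = 0.000183), 1.60 for mercury against non-treated cells, and 0.79 for arsenic against non-treated cells (adjusted p = 0.0222). SLC38A2, a neutral amino acid transporter gene, had an LFC of 0.53 (adjusted p = 2.06e-05), and ATF4 itself of 0.64 (adjusted p = 0.00196), although 53% of the 50-base stretches at the end of ATF4 occur in a pseudogene. ATF4 did not pass without arsenic library 1 (adjusted p = 0.0535).

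Few members of the remaining lists passed at this time, and over all genes tested 0.737% were higher and 0.818% lower. Of 28 ER chaperone and unfolded protein response genes, 1 was higher (HERPUD1) and 0 lower. Of 34 proteasome subunit genes, 0 passed in either direction, as for 13 mitochondrially encoded and 14 circadian clock genes. Of 22 p53 target genes, 1 was lower (FDXR), of 19 NF-kB feedback and cytokine genes 1 was higher (HBEGF, described above), and of 22 YAP and SRF target genes 2 were higher (CCN1 and CCN2, the latter with an LFC of 0.92). Of 18 amino acid transporters, SLC7A11 and SLC38A2 were higher, and of 383 zinc finger genes named ZNF 4 were higher and 0 lower.

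**Figure D3:**
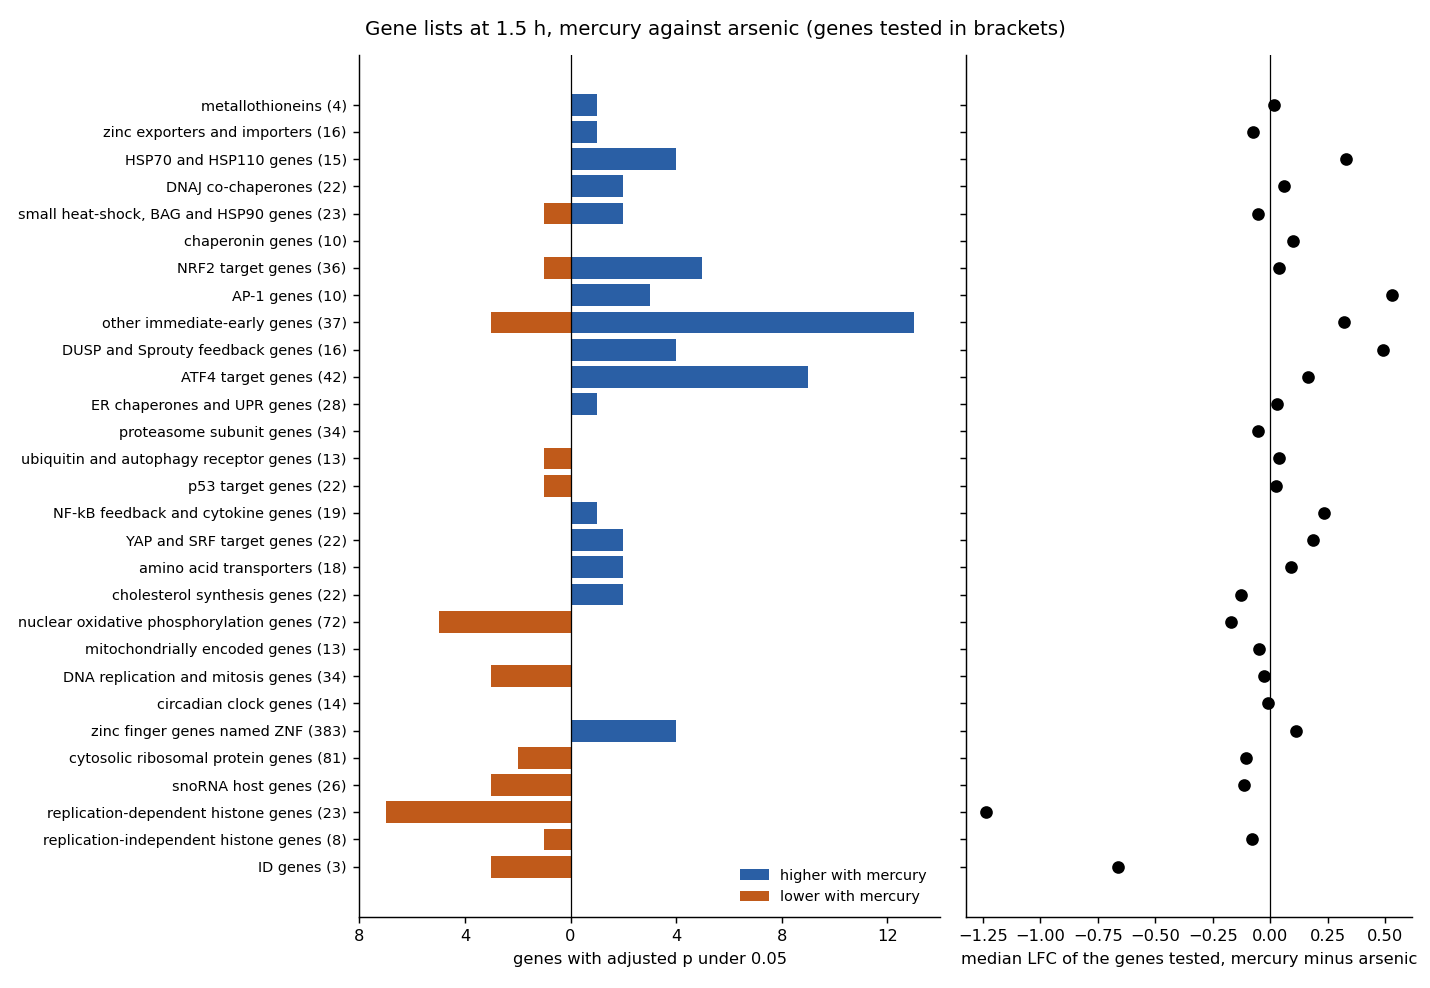
Genes with an adjusted p under 0.05 in each gene list (left, x axis, higher with mercury to the right and lower to the left) and median LFC of all genes tested in the list (right, x axis), with the number of genes tested in brackets. Immediate-early and ATF4 target genes hold the most higher calls (13 and 9), and replication-dependent histone genes the most lower ones (7) and the lowest median (-1.24).

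The largest falls with mercury were in histone genes. Replication-dependent histone genes are expressed in S phase to package new DNA, and most of their mRNA ends in a stem-loop instead of a poly(A) tail, so that 3′ mRNA sequencing counts mainly the polyadenylated part, whose part in the result was not tested. In these bulk samples, fewer cells in S phase and less histone RNA per cell cannot be told apart. H1-2, a linker histone gene on chromosome 6, had 56.4, 45.9, and 48.5 CPM with mercury against 354, 306, and 192 CPM with arsenic and 222, 211, and 242 CPM in non-treated cells (LFC -2.50, standard error 0.20, adjusted p = 1.17e-15). H4C3, a histone H4 gene of the same chromosome, had 479, 492, and 499 CPM against 2089, 2226, and 1313 CPM with arsenic, and 1356, 1280, and 1437 CPM in non-treated cells (LFC -1.94, standard error 0.17, adjusted p = 3.99e-13). For both genes the mercury libraries were low and close together, and the third arsenic library lay near the non-treated cells while the first and second lay above. Without the first and second, the LFC was -1.93 for H1-2 (adjusted p = 6e-08) and -1.42 for H4C3 (adjusted p = 1.4e-05).

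In all, 7 of 23 replication-dependent histone genes tested were lower with mercury, each with an LFC below -1, and 0 were higher. This list, like the lists of replication-independent histone and ID genes, was written after the values were seen. Its median LFC was -1.24, and 19 of its 23 genes had an LFC below 0. The median was -1.44 for mercury against non-treated cells and -0.20 for arsenic against the same cells. H2AC20, an H2A gene on chromosome 1, had 6.15, 4.0, and 6.19 CPM with mercury against 29.8, 18.8, and 12.2 CPM with arsenic (LFC -1.88, adjusted p = 3.51e-05), and the linker histone gene H1-5 3.74, 8.0, and 3.46 CPM against 23.6, 15.4, and 17.0 CPM (LFC -1.88, adjusted p = 0.00105). Of the 50-base stretches at the end of H2AC20, 28.5% also occur in H2AC19. H2AC21 had at most 2 counts in each mercury library and 4.60, 12.3, and 4.47 CPM with arsenic, at least 9.13-fold lower with mercury at a floor of 3 counts per library. Without arsenic library 2, this bound was 5.803-fold. H1-4 (LFC -1.31, adjusted p = 0.00462) did not pass without arsenic library 2 (adjusted p = 0.0893), and H2BC4 (LFC -2.41, adjusted p = 0.00797) did not without arsenic library 1, mercury library 1, or mercury library 2 (adjusted p = 0.0662, 0.0779, and 0.0645). Without both arsenic libraries, H1-2 and H4C3 were the 2 members that passed, with a median LFC of -1.16 over the list.

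Replication-independent histone genes, whose mRNA is polyadenylated at all times of the cell cycle, stayed closer to 0, with 1 of 8 lower, H1-10 (LFC -0.60, adjusted p = 0.0248), and a median LFC of -0.08. With a single library left out, H1-10 passed only without arsenic library 3. H3-3B had 1514 CPM as the mean with arsenic and 1526 CPM with mercury, and H2AZ1 1208 and 1246 CPM. Of 34 DNA replication and mitosis genes, 3 were lower (TOP2A, CDC20, and MCM7) and 0 higher, with a median LFC of -0.03. Over all genes tested, 0.818% were lower. None of these 3 genes passed without arsenic library 2.

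The ID genes encode helix-loop-helix proteins that block DNA binding of their partners and are classic targets of BMP signalling. ID1, on chromosome 20, had 352, 303, and 342 CPM with mercury against 733, 695, and 636 CPM with arsenic and 645, 662, and 712 CPM in non-treated cells (LFC -1.05, standard error 0.09, adjusted p = 3.35e-14). The arsenic and non-treated libraries overlapped, and the mercury libraries lay below both, also without the first and second arsenic libraries (LFC -0.94, adjusted p = 1.5e-07). All 3 ID genes tested were lower, ID3 with an LFC of -0.38 (adjusted p = 0.00254) and ID2 with -0.66 (adjusted p = 0.0112). ID3 did not pass without mercury library 2 (adjusted p = 0.0645), nor ID2 without arsenic library 2 (adjusted p = 0.118) or mercury library 2 (adjusted p = 0.0879). TXNIP, an inhibitor of thioredoxin and of glucose uptake, had 29.95, 40.5, and 28.5 CPM with mercury against 48.2, 54.1, and 56.3 CPM with arsenic (LFC -0.68, adjusted p = 0.00922), which did not pass without arsenic library 2 (adjusted p = 0.0661), mercury library 1 (adjusted p = 0.106), or mercury library 3 (adjusted p = 0.11).

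**Figure D4:**
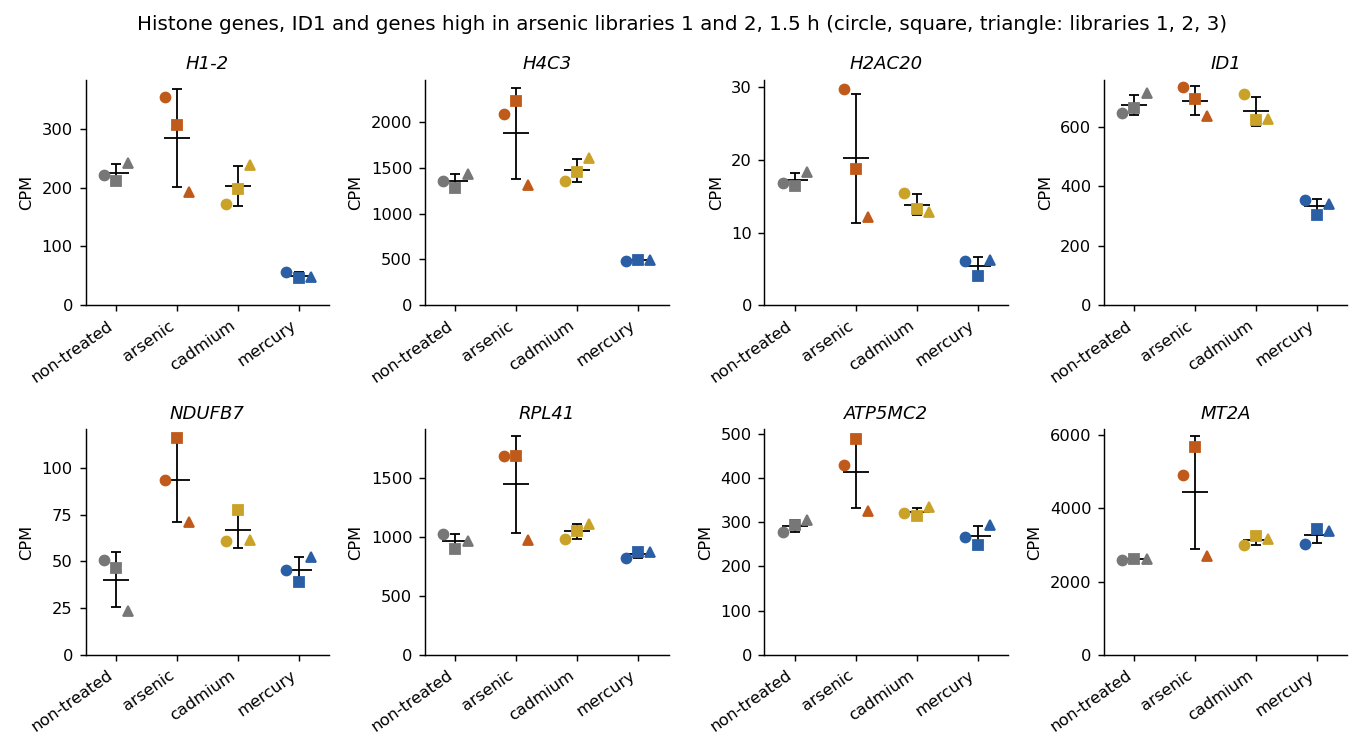
CPM (y axis) of 8 genes in non-treated, arsenic, cadmium, and mercury libraries of 1.5 h (x axis), with a symbol for each library and the mean ± SD (n = 3) in black. H1-2, H4C3, H2AC20, and ID1 are low in all 3 mercury libraries, whereas NDUFB7, RPL41, ATP5MC2, and MT2A are high in the first and second arsenic libraries and MT2A did not pass the test.

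The 74 genes in which arsenic lay farther from the non-treated cells included subunits of the respiratory chain, ribosomal proteins, and snoRNA host genes. Of 72 nuclear oxidative phosphorylation genes, 5 were lower with mercury than with arsenic and 0 higher, with a median LFC of -0.17, which was -0.05 without the first and second arsenic libraries. NDUFB7, a subunit of complex I, had 93.6, 116, and 71.2 CPM with arsenic, 45.5, 38.9, and 52.2 CPM with mercury, and 50.6, 46.4, and 23.5 CPM in non-treated cells (LFC -1.04, standard error 0.21, adjusted p = 0.00223). It did not pass without arsenic library 2 (LFC -0.85, adjusted p = 0.0845), and without both arsenic libraries its LFC was -0.64 (adjusted p = 0.991), although each arsenic library lay above each mercury and each non-treated library. ATP5MC2, a subunit of the ATP synthase, had 430, 488, and 325 CPM with arsenic against 266, 250, and 293 CPM with mercury (LFC -0.62, adjusted p = 0.00223), and was likewise not significant without arsenic library 2 (adjusted p = 0.109). Of 81 cytosolic ribosomal protein genes, 2 were lower (RPL41 and RPS9) and 0 higher, beside 0.818% lower over all genes tested. Their median LFC was -0.11, which was -0.01 without both arsenic libraries.

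RPL41 had 1684, 1687, and 971 CPM with arsenic, 820, 869, and 875 CPM with mercury, and 1024, 895, and 970 CPM in non-treated cells (LFC -0.76, adjusted p = 0.0155). The third arsenic library lay within the non-treated range, and without arsenic library 2 the adjusted p was 0.209. SNHG25, a snoRNA host gene, had 127, 126, and 86.4 CPM with arsenic against 46.0, 51.2, and 43.3 CPM with mercury (LFC -1.27, adjusted p = 6.97e-05) and passed in each fit that left out 1 library, but not without both (adjusted p = 0.499). Of 26 snoRNA host genes, 3 were lower and 0 higher. The ends of RPL41 and SNHG25 share 27.6% and 32.8% of their 50-base windows with other genes, which leaves their counts less certain.

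These sets also differed in the structure of their transcripts, which the test did not use. In the GENCODE annotation, the median transcript length was 1982 bases for the 74 genes and 3150 bases for the 78 genes, against 3159 bases for all genes tested. The 27 genes had the shortest transcripts of the 4 sets, with a median of 1335 bases, and the 13 genes the longest, with 6437 bases. The median GC content of the last 400 bases, from which 3′ reads come, was 53.5% for the 74 genes, 54.0% for the 27 genes, 35.9% for the 78 genes, and 40.5% for all genes tested. Across all genes, the median LFC was -0.08 in the fifth of genes with the shortest transcripts and 0.05 in the fifth with the longest. The part of transcript length and GC content in the difference between the arsenic libraries was not tested.

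The later libraries, which the comparison at 1.5 h does not use, were examined for the same genes. The second arsenic library of 3 h stood apart, with 2215276 counts and 1.91% mitochondrial counts beside 5.72% and 5.43% in the other arsenic libraries of 3 h. At 3 h, 206 genes were higher with mercury than with arsenic (1.67%) and 27 lower (0.219%), and at 24 h 837 (6.78%) and 566 (4.59%). Without that arsenic library, an alternative chosen after seeing the data, 156 were higher and 30 lower at 3 h. Of the 91 genes higher at 1.5 h, 57 were also higher at 3 h and 52 at 24 h, while 1 was lower at 24 h, MT1E. Without the second arsenic library of 3 h, 46 of the 91 were higher and 4 of the 101 lower at 3 h. Of the 78 genes in which mercury lay farther away, 55 were higher at 3 h, against 2 of the other 13. Of the 101 lower genes, 3 were lower at 3 h, ID1, ID3, and TXNIP, and 33 at 24 h, with 4 higher at 24 h. Of the 74 genes in which arsenic lay farther away, 0 were lower at 3 h, where only 0.219% of all genes tested were lower. At 24 h, 23 of the 74 were lower and 3 higher, beside 4.59% lower over all genes. Of the 27 lower genes in which mercury lay farther away, 3 were lower at 3 h, and 10 were lower and 1 higher at 24 h.

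The higher genes took different courses. HSPA1A had an LFC of 1.05 at 3 h (adjusted p = 3.93e-05) and 4.92 at 24 h (adjusted p = 4.54e-34), and HBEGF of 1.81 and 2.91. EGR1 had 1.74 at 3 h (adjusted p = 2.64e-07) and 0.36 at 24 h (adjusted p = 0.243). HMOX1 did not pass at 3 h (LFC 0.44, adjusted p = 0.0564) or at 24 h (LFC -0.34, adjusted p = 0.0612). MT1E had 0.73 at 3 h (adjusted p = 8.83e-07) and -1.04 at 24 h (adjusted p = 3.09e-12), where it was higher with arsenic. Among the lower genes, ID1 had -0.56 at 3 h (adjusted p = 1.17e-05) and -0.57 at 24 h (adjusted p = 1.88e-06). H1-2 and H4C3 did not pass at 3 h (LFC -0.55 and -0.51, adjusted p = 0.133 and 0.12) and were lower at 24 h (LFC -0.94 and -0.56, adjusted p = 0.000408 and 0.0213).

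**Figure D5:**
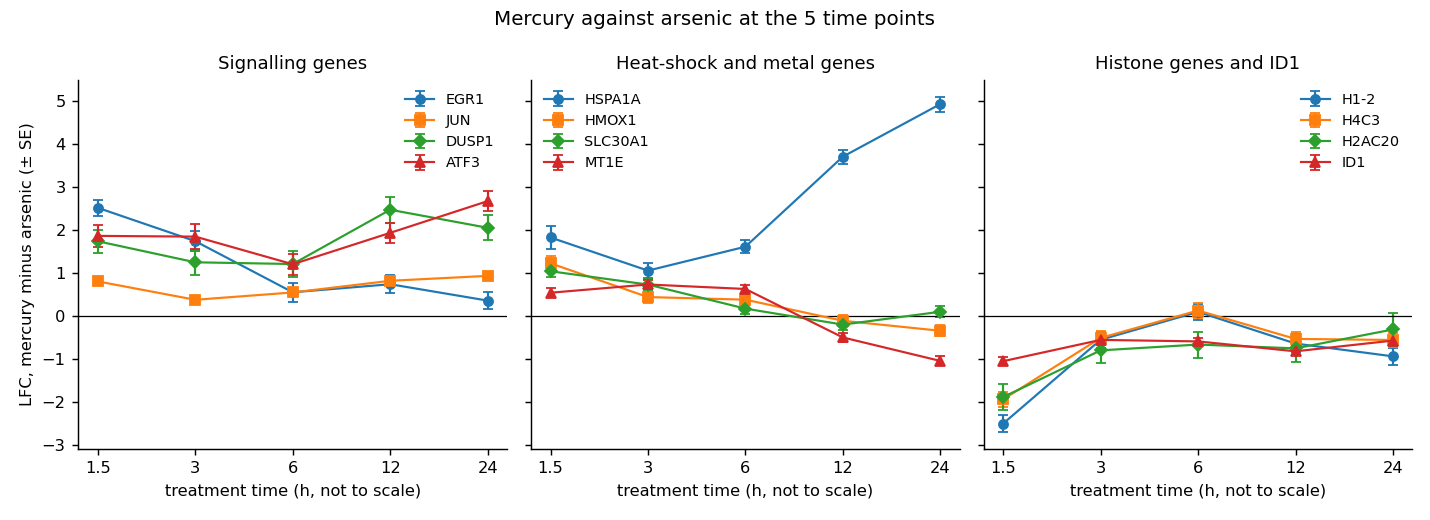
LFC of mercury minus arsenic (y axis, ± standard error) over the 5 time points from 1.5 h to 24 h (x axis, not to scale) for signalling genes, heat-shock and metal genes, and histone genes with ID1. EGR1 falls from 2.51 to 0.36, HSPA1A ends at 4.92, MT1E turns from 0.54 to -1.04, and H1-2 starts at -2.50 and lies at -0.55 by 3 h.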

How the data were processed

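Whole-number counts per gene were deposited by the authors for 60 libraries of QuantSeq 3′ FWD, made by alignment to GRCh38 with STAR 2.7.9a (per the labels) and counting in union mode over GENCODE basic exons, with no normalization. Of 62703 genes in the table, 12341 passed filterByExpr (minimum count 10, minimum total count 15) and were tested. Counts were fitted with edgeR 4.0.16 (glmQLFit, glmQLFTest, TMM factors 0.934 to 1.034) in R 4.3.3 over all 60 libraries in 20 groups, which share 1 estimate of the spread, with Benjamini-Hochberg adjustment over all genes tested, a threshold of 0.05, and an LFC limit of 1 where stated. Total counts of the 6 libraries set the precision, and floors (3 counts per library) cover counting error only.

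The comparison, gene lists, and members were chosen with earlier results of these data known. Named were, among genes past both limits with a mean of at least 5 CPM over the 6 libraries, the 20 largest higher and 10 largest lower, up to 3 called members of each list by size of LFC, and genes the study names. A further 21 genes were named after their values were seen, KLF6, ZFP36L1, MCL1, GCLM, MAFG, PGD, PPP1R15A, ATF4, TXNIP, CLK1, and FOS among them. H3-3B and H2AZ1 were also chosen in this way. Shared ends are the percent of 50-base stretches in the last 400 bases of a transcript that occur in another gene. Alternatives were other size factors and filters, fewer libraries, a replicate block, glmTreat, DESeq2 1.42.0, and left-out libraries. On simulated counts for this comparison with 200 changed genes among 12341, the fit called 38 of 50 genes changed 2-fold and 18 of 50 changed 1.5-fold, with 5 false calls. The simulated arsenic libraries were drawn from a common mean. The difference between the third arsenic library and the others was not simulated, so the false calls do not cover it. A few genes are not reported here.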

Additional observations from a re-analysis of the deposited data

Results flagged for a closer look

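For 6 genes the LFC of mercury against arsenic changed between 1.5 h and 3 h by a test of the difference itself (interaction term in edgeR, adjusted over all genes tested). The histone genes H1-2 and H4C3 had an LFC of -2.50 and -1.94 at 1.5 h and of -0.55 and -0.51 at 3 h, a change of 1.95 (standard error 0.269, adjusted p = 8.02e-06) and 1.43 (standard error 0.240, adjusted p = 0.000772). For H1-2, the mercury mean was 50.3 ± 5.5 CPM at 1.5 h and 104.9 ± 10.2 CPM at 3 h, and the arsenic mean was 284.1 ± 83.3 and 153.3 ± 24.6 CPM (SD, n = 3). The mercury mean was thus higher and the arsenic mean lower at 3 h.

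The other 4 genes were near an LFC of 0 at 1.5 h and higher with mercury at 3 h. STC2, a secreted glycoprotein gene of the ATF4 response, changed by 0.91 (from 0.08 to 0.99, adjusted p = 0.00273). CDKN1A, the cell cycle inhibitor p21, changed by 1.19 (from -0.03 to 1.16, adjusted p = 0.00352). MAFK, a small MAF gene, changed by 1.27 (from 0.26 to 1.53, adjusted p = 0.02), and SH3RF1, a JNK scaffold gene, by 1.21 (from -0.30 to 0.92, adjusted p = 0.0203). Without arsenic libraries 1 and 2 of 1.5 h, the changes were 1.38 for H1-2 (adjusted p = 0.204), 0.91 for H4C3 (0.589), 0.63 for STC2 (0.604), 0.84 for CDKN1A (0.622), 0.66 for MAFK (0.956), and 1.18 for SH3RF1 (0.411), and none passed. Without the second arsenic library of 3 h, which stood apart with 1.91% mitochondrial counts, 5 of the 6 still passed and MAFK did not (1.13, adjusted p = 0.128).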

How the results depend on the processing

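Without both arsenic libraries 1 and 2, 4 of the 101 lower genes (ANXA6, SHISA5, UBL5, and LGALS1) had an LFC just above 0, and among named genes that had not passed, the sign turned for MT2A (0.28), SLC7A5 (0.16), SLC1A4 (0.032), ABCC1 (-0.27), and IER3 (0.29). With 1 library left out, the LFC of named genes that had not passed lay on both sides of 0, from -0.227 to 0.106 for SLC6A9, -0.401 to 0.224 for IER3, -0.13 to 0.339 for ABCC1, -0.223 to 0.13 for ARC, and -0.334 to 0.014 for SLC39A10. No gene that passed turned its sign under the other alternatives. The 91 higher and 101 lower genes became 169 lower without the filter on low counts and 198 lower with only the 12 libraries of 1.5 h. The replicate block gave 93 higher and 102 lower genes, keeping 88 and 97, and with only the 6 libraries compared 55 lower. Same-numbered arsenic and mercury libraries deviated with correlations of 0, 0.027, and -0.048, and those of different number with -0.062 to 0.059. Deviations of single libraries hold much counting error, so whether the numbers pair the libraries cannot be told from them. A test beyond an LFC of 1 (glmTreat) called 1 higher and 3 lower genes. DESeq2 called 6 lower genes with an LFC below -1 in place of 15, and its independent filter gave no adjusted p to 9 of these 15. Leaving out 1 library gave 38 to 172 higher and 11 to 286 lower genes, and with the LFC limit 18 to 34 and 8 to 24. Without both arsenic libraries 1 and 2, chosen after seeing the data, there were 20 and 4, and 14 and 2 with the limit. Of 99 named genes tested, 87 were called, and 33 were called in all 6 fits that left out 1 library. Total counts of 3251153 to 3984283 per library limit genes of few CPM, such as FOS, HSPA6, and H2AC21. The change between 1.5 h and 3 h was called in 6 genes, in 7 without the second arsenic library of 3 h, and in 0 without arsenic libraries 1 and 2 of 1.5 h (edgeR; 635 genes at an unadjusted p under 0.05). The cause of these changes was not tested.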
